A study of Homo sapiens with 12 samples.

Results

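Thyroid identity and hormone synthesis genes are described here in 2 human cancer cell lines that carry an activated RET kinase. The 9 genes were taken by name, as the rows of the expression tables whose Ensembl identifier maps to PAX8, FOXE1, HHEX, TG, TSHR, SLC5A5, DIO1, DIO2 or DUOX2, and all 9 were found among 37247 genes. The groups were LC-2/ad cells, a lung adenocarcinoma line, after 48 h in 100 nM selpercatinib, LC-2/ad parent cells with no treatment, TPC-1 cells, a papillary thyroid carcinoma line, after the same exposure, and TPC-1 parent cells with no treatment. Each of the 4 groups had 3 RNA-seq libraries, and the labels say neither whether these came from separate cultures nor whether parent cells received the drug's solvent, so the p-values reflect the variation among these libraries alone, and that variation may be technical. Both lines are known to carry a CCDC6-RET fusion, and selpercatinib inhibits the RET kinase. Each tissue was represented by a single line. The comparison asks whether RET inhibition restores thyroid genes.

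In the thyroid follicle the transcription factors PAX8, FOXE1, HHEX and NKX2-1 act together to set the identity of the hormone-producing cell. They maintain genes for thyroglobulin (TG), the TSH receptor (TSHR), the sodium/iodide symporter (SLC5A5) and the peroxide-generating oxidase DUOX2. The deiodinases DIO1 and DIO2 convert the prohormone thyroxine into the active hormone. RET fusions and mutant BRAF drive ERK signalling in papillary thyroid carcinoma, where loss of these genes is a known feature, and drugs that block the pathway are studied as a means of restoring iodide uptake. NKX2-1 is shared with the lung, and several of the other genes are also used outside the thyroid.

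The sequences before the transcription starts are shown for the 3 members that were higher in treated LC-2/ad cells. Among these sequences, only that of the upstream DIO2 start held a searched motif. Each is the 250 bases before a RefSeq start, on the gene's own strand, in GRCh38.p14. Capitals mark letters that match a searched motif. DIO2 has 2 RefSeq starts, and the upstream one is given first.
DIO2, upstream start, chr14:80212179-80212428, minus strand: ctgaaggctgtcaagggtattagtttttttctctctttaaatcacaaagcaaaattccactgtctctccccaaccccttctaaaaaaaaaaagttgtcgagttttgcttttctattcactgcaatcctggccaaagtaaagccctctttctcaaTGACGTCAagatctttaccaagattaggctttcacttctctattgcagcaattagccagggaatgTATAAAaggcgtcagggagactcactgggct
DIO2, downstream start, chr14:80211505-80211754, minus strand: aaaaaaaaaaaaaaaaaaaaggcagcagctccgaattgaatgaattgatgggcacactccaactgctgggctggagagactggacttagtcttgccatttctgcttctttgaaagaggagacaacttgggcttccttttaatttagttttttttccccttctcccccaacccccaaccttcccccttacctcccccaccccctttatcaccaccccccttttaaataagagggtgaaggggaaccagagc
FOXE1, chr9:97852976-97853225, plus strand: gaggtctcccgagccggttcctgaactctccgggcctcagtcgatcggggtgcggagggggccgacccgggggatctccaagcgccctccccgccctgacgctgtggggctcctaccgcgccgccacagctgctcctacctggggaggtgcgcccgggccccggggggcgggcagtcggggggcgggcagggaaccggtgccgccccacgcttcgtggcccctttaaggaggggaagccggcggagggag
PAX8, chr2:113278922-113279171, minus strand: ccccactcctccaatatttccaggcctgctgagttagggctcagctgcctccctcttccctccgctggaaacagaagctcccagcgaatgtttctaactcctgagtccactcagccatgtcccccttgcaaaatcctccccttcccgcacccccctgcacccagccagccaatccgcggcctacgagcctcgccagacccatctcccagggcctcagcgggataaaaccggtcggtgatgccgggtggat

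Motifs were searched on both strands in the 9 windows of the 8 members that matched the RefSeq table; TG did not match. The first motif was TGACGTCA, the cyclic AMP response element (CRE). For AP-1 factors the letters searched were TGACTCA, present in 4.2% of all windows of that length. For forkhead factors they were GTAAACA (2.98%), and for ETS factors CCGGAAGT (3.42%). The TATA box was searched as TATAAA. No match overlapped another in these windows. The window of the upstream DIO2 start held a CRE from -96 to -89 and a TATA box from -31 to -26, counted from the start. A CRE match was present in 1.65% and a TATA match in 10.7% of all 35116 promoter windows of that length. The only other match was in DUOX2, a TATA box on the opposite strand from -127 to -122. No window of FOXE1, PAX8 or HHEX held any of the 5 motifs, which says only that these letters are not there. The FOXE1 and HHEX windows were rich in G and C (75.6% and 81.2%), against 61.6% for PAX8, 40.8% for the upstream DIO2 start and a median of 58% over all windows.

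Expression was given as TPM, a transcript abundance scaled for gene length and library size, so levels of different genes can be compared within a library. Sequencing depth is unknown. The tables of the lines were scaled separately, so levels set across lines are a description. The libraries of TPC-1 held 12554 to 12967 genes at 1 TPM or more, and those of LC-2/ad held 13713 to 14336. As read-outs of the drug, DUSP6, a phosphatase that ERK signalling induces, averaged 12.9 ± 1.84 TPM in treated and 159.5 ± 2.83 TPM in parent LC-2/ad cells, and 5.91 ± 1.41 TPM in treated and 12.7 ± 1.18 TPM in parent TPC-1 cells (SD, n = 3 each). RET averaged 21.4 ± 0.683 TPM in treated and 16.0 ± 0.422 TPM in parent LC-2/ad cells, and 6.85 ± 0.124 TPM in treated and 7.04 ± 0.203 TPM in parent TPC-1 cells.

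The labelled tissues were checked against marker genes. In TPC-1 cells 3 of 9 follicular cell markers reached a mean of 1 TPM, PAX8, FOXE1 and HHEX, in treated and parent cells alike. NKX2-1 was listed at 0 in all 6 TPC-1 libraries, and TG, TSHR, SLC5A5, IYD and DIO1 stayed under a mean of 1 TPM. By these markers 6 of 9 defining transcripts of a follicular cell were absent or under 1 TPM in the line labelled thyroid. In LC-2/ad cells 6 of the 9 reached 1 TPM after treatment and 5 in parent cells, the lung line's NKX2-1 among them. Their summed level was 209 to 214 TPM in treated and 141 to 149 TPM in parent LC-2/ad libraries, and 269 to 298 TPM in treated and 166 to 245 TPM in parent TPC-1 libraries. Most of the LC-2/ad sum was NKX2-1, at 140.1 to 140.6 TPM in treated and 105.4 to 114 TPM in parent libraries. Most of the TPC-1 sum was PAX8, at a mean of 271 TPM in treated and 190 TPM in parent cells. A higher sum is thus not a rise of the whole set. Of 7 alveolar type 2 cell markers, 4 reached 1 TPM in treated and 3 in parent LC-2/ad cells, with SFTPC listed at 0 in all. They summed to 40.9 to 47.4 TPM in treated and 33.2 to 39.6 TPM in parent LC-2/ad libraries. In TPC-1 only ABCA3 reached 1 TPM, in both groups. The sums there were 1.81 to 2.63 TPM in treated and 1.99 to 2.17 TPM in parent libraries. Of the 4 C cell markers that matched, none reached 1 TPM in any group. The 5 airway secretory or ciliated cell markers summed to 0.475 to 1.77 TPM in treated and 9.4 to 11.3 TPM in parent LC-2/ad libraries, which moved with the drug, and their part in the results below was not tested. The 4 kidney or Mullerian markers, of tissues that also use PAX8, summed to 4.61 to 5.67 TPM in treated and 3.38 to 4.09 TPM in parent LC-2/ad libraries, and to 11.0 to 12.5 TPM in treated and 18.7 to 25.1 TPM in parent TPC-1 libraries, with CDH6 the 1 gene at 1 TPM or more in each group. Their part was likewise not tested. Epithelial markers summed to 2493 to 2557 TPM in treated and 3686 to 3835 TPM in parent LC-2/ad libraries, and to 2444 to 2470.4 TPM in treated and 2826 to 3146 TPM in parent TPC-1 libraries. Their part too was not tested. Fibroblast markers summed to 26.5 to 40.8 TPM over all libraries, endothelial markers to at most 5.09 TPM and blood markers to at most 1.43 TPM, with HBB listed at 0 in all.

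**Figure D1:**
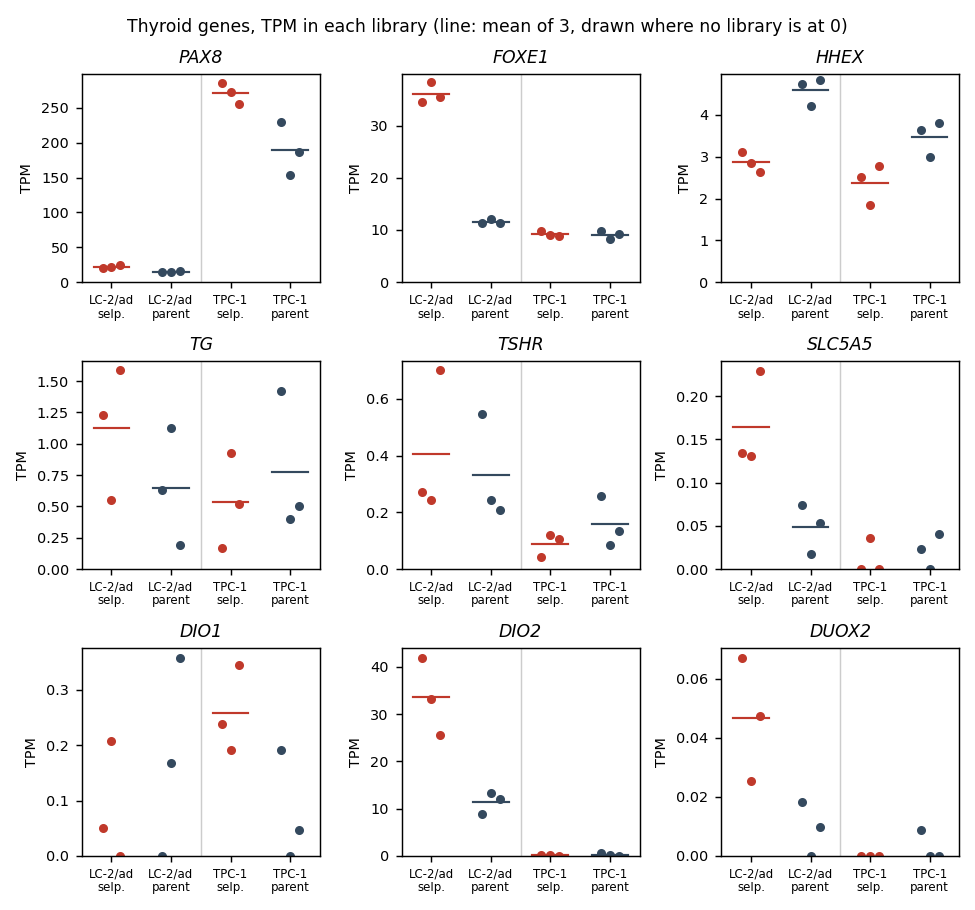
TPM (linear axis from 0, its own range in each panel) of the 9 thyroid genes in every library, with selpercatinib-treated cells in red and parent cells in dark blue. Points are the 3 libraries of a group and lines are their means, drawn where no library is at 0; FOXE1 and DIO2 of treated LC-2/ad cells stand above all other groups, while TG, TSHR, SLC5A5, DIO1 and DUOX2 stay under 2 TPM throughout.

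In LC-2/ad cells PAX8, FOXE1 and DIO2 were higher and HHEX was lower after selpercatinib, while the genes that take up iodide and make the hormone precursor stayed under 2 TPM. The 4 genes that could be tested, whose TPM averaged 1 or more over the line's libraries, all passed the limma test at an adjusted p under 0.05, with 3 higher and 1 lower. Across all 14118 genes tested in this line 55% passed, 30.6% higher and 24.4% lower, so a call by itself was common. After median-of-ratios scaling between libraries that split turned to 3442 higher and 4318 lower, and the 4 members kept their directions and calls. The other 5 members, TG, TSHR, SLC5A5, DIO1 and DUOX2, lay under the filter. In bulk RNA a change in the number of cells that express a gene and a change in the RNA per cell cannot be told apart.

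PAX8 (ENSG00000125618, chr2:113215997-113278950, GRCh38), a paired-box factor needed to form follicular cells, stood at 19.5, 21.7 and 24.6 TPM in treated libraries of LC-2/ad, against 14.0, 14.1 and 16.2 TPM in parent libraries. The groups did not overlap. The log2 fold change was 0.53 ± 0.10 (SE), or 1.45-fold on the TPM + 1 scale, with an adjusted p of 0.00247. The opposite-strand gene PAX8-AS1 overlaps PAX8 in GENCODE 29 and was not analysed here. Since no strand setting is given in the sources used here, reads may be shared between the pair.

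FOXE1 (ENSG00000178919, chr9:97853254-97856715), a forkhead factor of the developing thyroid and foregut, stood at 34.5, 38.4 and 35.6 TPM in treated libraries of LC-2/ad, against 11.4, 12.1 and 11.3 TPM in parent libraries. All treated libraries lay well above all parent libraries, and the spread within each group was small. FOXE1 rose by 1.56 ± 0.07 on the log2 scale (2.95-fold, adjusted p = 1.52e-06). No GENCODE 29 gene overlaps its span, but PTCSC2 lies beside it on the opposite strand and was not analysed here.

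HHEX (ENSG00000152804, chr10:92689951-92695646), a homeobox factor of the thyroid, liver and blood lineages, moved the other way. It stood at 3.11, 2.85 and 2.64 TPM in treated libraries of LC-2/ad, against 4.74, 4.22 and 4.83 TPM in parent libraries, with no overlap. HHEX fell by 0.53 ± 0.12 on the log2 scale (adjusted p = 0.00547).

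DIO2 (ENSG00000211448, chr14:80197527-80387757) encodes the deiodinase that activates thyroxine inside cells. It stood at 41.9, 33.3 and 25.6 TPM in treated libraries of LC-2/ad, against 8.85, 13.3 and 12.1 TPM in parent libraries. The groups did not overlap, though the treated libraries were spread more widely than those of FOXE1. DIO2 rose by 1.47 ± 0.19 on the log2 scale (2.76-fold, adjusted p = 0.000438). Its span overlaps that of the opposite-strand gene DIO2-AS1, which was not analysed here, so reads may be shared between the 2.

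All 4 tested members had treated and parent libraries that did not overlap, as did 62.8% of all genes tested in LC-2/ad (35.3% higher and 27.6% lower). Without any single LC-2/ad library the log2 fold change of PAX8 was 0.45 to 0.61, of FOXE1 1.52 to 1.59, of HHEX -0.58 to -0.49 and of DIO2 1.30 to 1.64, and all calls held. In treated LC-2/ad cells the order of mean levels was FOXE1, DIO2, PAX8, HHEX, TG, TSHR, SLC5A5, DIO1 and DUOX2. In parent cells PAX8 came first, then FOXE1, DIO2, HHEX and TG. FOXE1 and DIO2, neighbours in either order, had overlapping libraries in each group, and so had TG and TSHR, while PAX8 was separate from its neighbours.

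The remaining members in LC-2/ad gave values at the low end of the scale. TG, the thyroglobulin precursor of the hormone, stood at 1.23, 0.552 and 1.59 TPM in treated libraries, against 0.628, 1.13 and 0.196 TPM in parent libraries, and the groups overlapped (exact permutation test, two-sided, p = 0.3). TSHR, the receptor through which the pituitary drives the gland, stood at 0.273, 0.242 and 0.701 TPM in treated and 0.546, 0.242 and 0.208 TPM in parent libraries (exact permutation p = 0.6). SLC5A5, the symporter that concentrates iodide, was the only low member with a value in every library whose groups did not overlap, at 0.134, 0.131 and 0.229 TPM in treated and 0.0743, 0.0177 and 0.0538 TPM in parent libraries. Its exact permutation p was 0.1, the smallest that 3 against 3 libraries can give, and 0.6 with Benjamini-Hochberg adjustment over the 6 such tests in both lines. So this difference did not pass, and without the filter its limma adjusted p was 0.0756. DIO1, the deiodinase of liver, kidney and thyroid, was listed at 0.0511, 0.207 and 0 TPM in treated and 0, 0.167 and 0.358 TPM in parent libraries. DUOX2, the oxidase that supplies peroxide for hormone synthesis, was listed at 0.0672, 0.0252 and 0.0474 TPM in treated and 0.0184, 0 and 0.00978 TPM in parent libraries. Its treated libraries all lay above its parent libraries, with no test because 1 library was at 0, and its span overlaps that of DUOXA2 on the opposite strand.

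In TPC-1 cells, the thyroid line, PAX8 was the only member past the threshold, FOXE1 and HHEX did not pass, and no other member reached 1 TPM in any treated library. The test could be made for 3 members, and 1 was called, against 4.96% of 12825 genes tested in this line (3.75% higher and 1.21% lower). The other 6 members, DIO2 included, were under the filter.

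PAX8 was by far the highest member in TPC-1. It stood at 285, 273 and 256 TPM in treated libraries, against 230.0, 154 and 186 TPM in parent libraries, and the groups did not overlap. The mean of treated cells ranked 496th and that of parent cells 718th among the 37247 genes. The log2 fold change was 0.53 ± 0.12 (1.44-fold) with an adjusted p of 0.0458, close to the threshold. The call ended without parent library 2 (0.39, adjusted p = 0.0924), parent library 3 (0.53, 0.143), treated library 1 (0.49, 0.148), treated library 2 (0.53, 0.127) or treated library 3 (0.57, 0.0663), and it held without parent library 1 (0.68, 0.0052). It also ended when no low genes were removed (adjusted p = 0.179) and without limma's variance trend (0.134). PAX8 was higher in treated cells in each of these fits.

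FOXE1 stood at 9.83, 9.10 and 8.89 TPM in treated TPC-1 libraries, against 9.83, 8.29 and 9.23 TPM in parent libraries, and the groups overlapped. The log2 fold change was 0.02 ± 0.11 with a 95% interval from -0.22 to 0.27 (adjusted p = 0.928), and its sign turned after median-of-ratios scaling (-0.03). HHEX stood at 2.53, 1.84 and 2.78 TPM in treated and 3.65, 2.99 and 3.80 TPM in parent libraries. The groups did not overlap, as for 25.8% of genes tested in this line (16.6% higher and 9.23% lower), but the log2 fold change of -0.41 ± 0.17 did not pass (adjusted p = 0.202, 95% interval from -0.80 to -0.03).

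The libraries of the low members of TPC-1 overlapped between the groups. TG stood at 0.167, 0.925 and 0.523 TPM in treated and 1.42, 0.401 and 0.505 TPM in parent libraries (exact permutation p = 0.7). TSHR stood at 0.0419, 0.119 and 0.106 TPM in treated and 0.258, 0.0862 and 0.133 TPM in parent libraries (exact permutation p = 0.4). The span of TSHR overlaps CEP128 on the opposite strand, a centrosome gene at a mean of 6.06 TPM in TPC-1 and 4.56 TPM in LC-2/ad. Reads may be shared between the pair, which was not tested. DIO2 stood at 0.285, 0.211 and 0.0402 TPM in treated and 0.621, 0.219 and 0.0109 TPM in parent libraries (exact permutation p = 0.8). SLC5A5 was listed at 0, 0.0356 and 0 TPM in treated and 0.0235, 0 and 0.0404 TPM in parent libraries. DIO1 was listed at 0.238, 0.191 and 0.344 TPM in treated and 0.191, 0 and 0.0474 TPM in parent libraries. DUOX2 was listed at 0 in all treated libraries, against 0.00896, 0 and 0 TPM in parent libraries. After adjustment over the 6 permutation tests of low members in both lines, SLC5A5 in LC-2/ad was at 0.6 and the other 5 at 0.8. In treated TPC-1 cells the order of levels was PAX8, FOXE1, HHEX, TG, DIO1, DIO2, TSHR, SLC5A5 and DUOX2, with the first 3 separate from each neighbour. TG overlapped DIO1, DIO1 overlapped DIO2 and DIO2 overlapped TSHR, while TSHR was separate from SLC5A5.

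**Figure D2:**
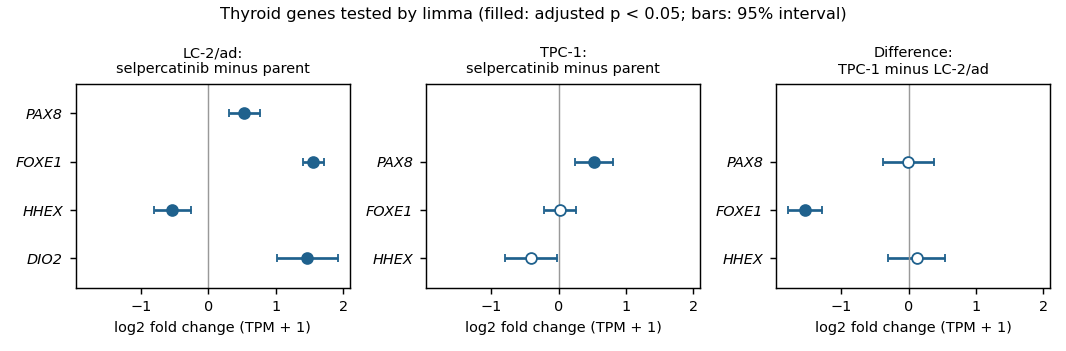
Log2 fold changes on the TPM + 1 scale (x axis) of the members with a test, by limma, with 95% intervals as bars. The left and middle panels give selpercatinib minus parent in LC-2/ad and TPC-1 and the right panel the difference of these responses, TPC-1 minus LC-2/ad; filled points passed an adjusted p of 0.05. FOXE1 lies at 1.56 in the left panel and 0.02 in the middle one, and PAX8 at 0.53 in each line.

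The responses of the lines were compared gene by gene in 1 fit of the 12 libraries, in which an offset between the tables cancels. FOXE1 differed, with a response that was lower by 1.53 ± 0.12 on the log2 scale in TPC-1 than in LC-2/ad (adjusted p = 7.07e-07), where 36.6% of 11996 genes were called (22.2% higher and 14.4% lower in TPC-1). Over the alternatives tried, that adjusted p was 1.95e-07 to 3.46e-05. For PAX8 the difference was -0.00 ± 0.17 (95% interval from -0.38 to 0.37, adjusted p = 0.988), with a sign that turned under 7 of 20 alternatives, and for HHEX 0.12 ± 0.19 (95% interval from -0.30 to 0.54, adjusted p = 0.669). These intervals are wide enough to hold differences as large as much of the response itself. DIO2 could be compared only without the filter, since it is under 1 TPM in TPC-1, and its difference was then -1.57 (adjusted p = 0.00427). As a description of levels across separately scaled tables, parent TPC-1 cells had 12.8 times the PAX8 TPM of parent LC-2/ad cells and 0.785 times the FOXE1 TPM. DIO2 averaged 0.284 ± 0.31 TPM in parent TPC-1 cells and 11.4 ± 2.32 TPM in parent LC-2/ad cells.

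The genes whose pattern over the 12 libraries was most like that of a member were taken by the smallest root mean square difference of log2(TPM + 1) after removing each gene's mean, among 11154 protein-coding genes at a mean of 1 TPM or more in each line. For FOXE1 these were CD24, a surface glycoprotein gene with similar copies elsewhere in the genome (0.12), and BTN3A1, a butyrophilin (0.15). BTN3A1 averaged 35.5 TPM in treated and 14.5 TPM in parent LC-2/ad cells, and 9.85 TPM in treated and 9.19 TPM in parent TPC-1 cells, close to the FOXE1 levels themselves. For PAX8 they were COL4A2, a basement membrane collagen (0.16), and CRIM1, a transmembrane BMP-binding protein (0.17). Like PAX8, both were far higher in TPC-1. In parent cells COL4A2 averaged 374 TPM in TPC-1 and 27.7 TPM in LC-2/ad, and CRIM1 169 and 14.9 TPM. The measure counts this gap between separately scaled tables as well as the response to the drug. For HHEX the nearest genes were IFI16, an interferon-inducible DNA sensor, and HPCAL1, a calcium sensor (0.13 each). The 12 values share their libraries and fall into 4 groups, so this is a description only.

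Of 27 other genes of thyroid hormone synthesis and handling, 15 could be tested in LC-2/ad, and 10 were higher and 1 lower after selpercatinib (73.3% called, against 55% of all genes tested). The median log2 fold change of the 15 was 0.36, against 0.07 over all genes tested. Of the 10, the protease CTSL was no longer called after median-of-ratios scaling (adjusted p = 0.0879). In TPC-1 9 could be tested, and 2 were higher and none lower, THRB and CTSB (22.2% called, against 4.96% of all genes tested). The median of the 9 was 0.16, against 0.05 over all genes tested. The unadjusted p was under 0.05 for the same 2 alone. The list was chosen with earlier results of these data known, so its shares and medians are a description only.

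Among the transcription factors, NKX2-1 stood at 140.6, 140.5 and 140.1 TPM in treated libraries of LC-2/ad, against 109.9, 114 and 105.4 TPM in parent libraries, and rose by 0.35 ± 0.04 (adjusted p = 0.000203). GLIS3, a zinc finger factor of thyroid and pancreas, stood at 8.0, 7.0 and 6.19 TPM in treated and 4.02, 4.57 and 3.89 TPM in parent LC-2/ad libraries, a rise of 0.64 ± 0.12 (adjusted p = 0.0026). It was higher in level in TPC-1, at 31.1, 26.2 and 29.3 TPM in treated and 27.1, 24.3 and 25.7 TPM in parent libraries, where 0.16 ± 0.09 did not pass (adjusted p = 0.328). All LC-2/ad libraries of these genes were separate by treatment, and the GLIS3 libraries of TPC-1 overlapped.

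Among the partners in hormone synthesis IYD, the dehalogenase that recycles iodide from used hormone precursors, stood at 9.89, 8.84 and 8.37 TPM in treated libraries of LC-2/ad, against 2.73, 2.95 and 2.82 TPM in parent libraries. It rose by 1.39 ± 0.10 (2.61-fold, adjusted p = 2.19e-05), with no overlap, and was under 0.05 TPM in every TPC-1 library. DUOX1, the paralog of DUOX2, stood at 1.51, 1.44 and 0.524 TPM in treated and 0.304, 0.221 and 0.246 TPM in parent LC-2/ad libraries. In TPC-1 it stood at 0.0982, 0.461 and 0.24 TPM in treated and 0.706, 1.59 and 2.2 TPM in parent libraries. The treated libraries were all higher in the first line and all lower in the second, each with an exact permutation p of 0.1, the smallest possible. The maturation factors DUOXA1 and DUOXA2 and the iodide exporter SLC26A4 stayed under 1 TPM, with highest values of 0.835, 0.0603 and 0.219 TPM in LC-2/ad and 0.0865, 0 and 0.251 TPM in the thyroid line.

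**Figure D3:**
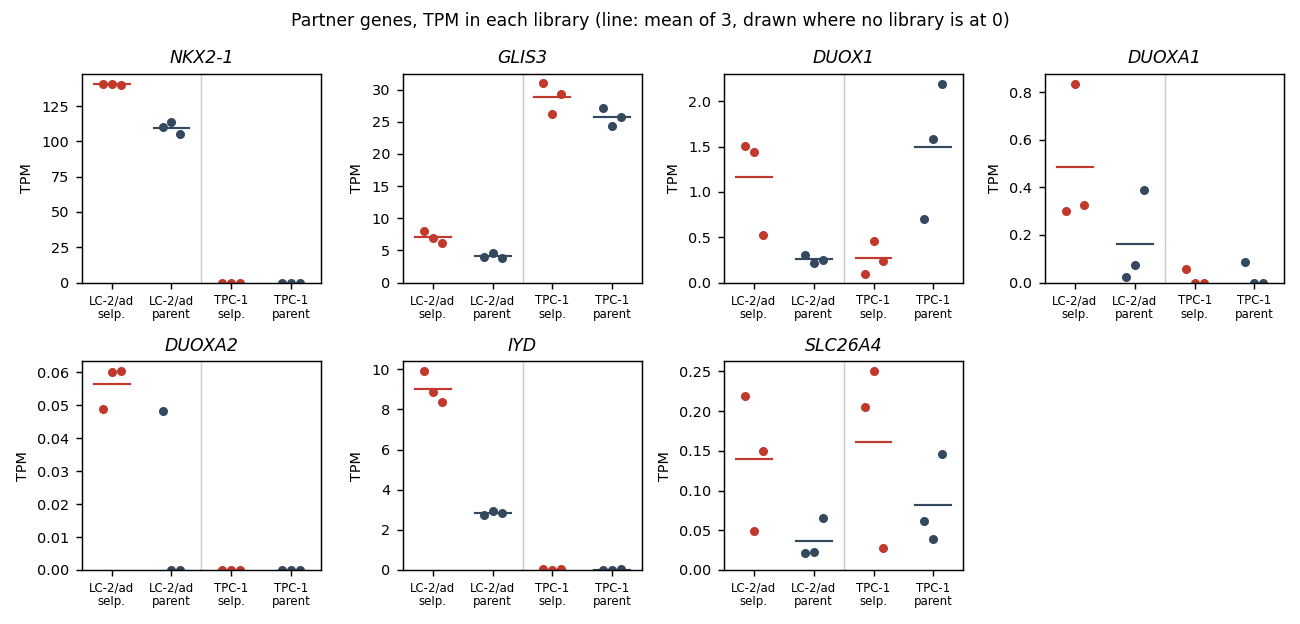
TPM (linear axis from 0, its own range in each panel) of 7 direct partners of the thyroid genes in every library, with selpercatinib-treated cells in red and parent cells in dark blue and group means as lines where no library is at 0. IYD and NKX2-1 of treated LC-2/ad cells lie above the parent cells, NKX2-1 is at 0 in all TPC-1 libraries, and DUOX1 lies higher in treated LC-2/ad cells and lower in treated TPC-1 cells.

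Genes that move or bind thyroid hormone also rose in LC-2/ad. CRYM, a cytosolic protein that binds the active hormone, stood at 10.1, 9.40 and 10.5 TPM in treated and 3.72, 2.90 and 2.95 TPM in parent libraries, and rose by 1.40 ± 0.11 (adjusted p = 3.22e-05). The amino acid and hormone carrier SLC7A8 stood at 5.13, 4.91 and 5.01 TPM in treated and 2.54, 1.52 and 1.95 TPM in parent libraries. It rose by 1.02 ± 0.15 (adjusted p = 0.000758), and the organic anion carrier SLCO4C1 rose by 1.01 ± 0.12 (adjusted p = 0.000229). KCNQ1, a potassium channel that aids iodide uptake in the thyroid, rose by 0.59 ± 0.15 (adjusted p = 0.0101). ANO1, a chloride channel also present in the thyroid, was the 1 gene that fell, by 0.55 ± 0.10 (adjusted p = 0.00233), and was chosen after its value was seen. In treated libraries it stood at 8.40, 10.6 and 8.58 TPM, against 13.9, 14.6 and 13.1 TPM in parent libraries, and it was listed at 0 in TPC-1.

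In TPC-1 the called genes were the nuclear hormone receptor THRB and the lysosomal protease CTSB, which can cleave thyroglobulin. THRB stood at 27.7, 22.9 and 27.0 TPM in treated libraries, against 15.9, 13.4 and 13.1 TPM in parent libraries, a rise of 0.83 ± 0.11 (1.78-fold, adjusted p = 0.00351) with no overlap. In LC-2/ad THRB stood at 2.56, 4.48 and 2.08 TPM in treated and 3.39, 3.84 and 4.50 TPM in parent libraries, with -0.32 ± 0.22 (adjusted p = 0.25, but 0.0259 without treated library 2). CTSB averaged 720.2 ± 23.8 TPM in treated and 599.8 ± 11.8 TPM in parent TPC-1 cells, a rise of 0.26 ± 0.04 (adjusted p = 0.0108). That call ended after median-of-ratios scaling (0.0565), without parent library 3 (0.0685) and without the variance trend (0.102). CTSB also rose in LC-2/ad, by 0.35 ± 0.03 (adjusted p = 6.3e-05). Of 7 listed genes that could be compared between the lines, 3 differed in response (42.9%, against 36.6% of all genes). THRB was higher in response by 1.15 ± 0.26 in TPC-1 than in LC-2/ad (adjusted p = 0.00364), THRA, the other nuclear receptor, lower by 0.72 ± 0.14 (0.00124) and GLIS3 lower by 0.48 ± 0.14 (0.0184, but 0.0735 with a pseudocount of 5). THRA averaged 8.37 TPM in treated and 10.1 TPM in parent TPC-1 cells, and 21.7 TPM in treated and 15.2 TPM in parent LC-2/ad cells, and was chosen after its values were seen.

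**Figure D4:**
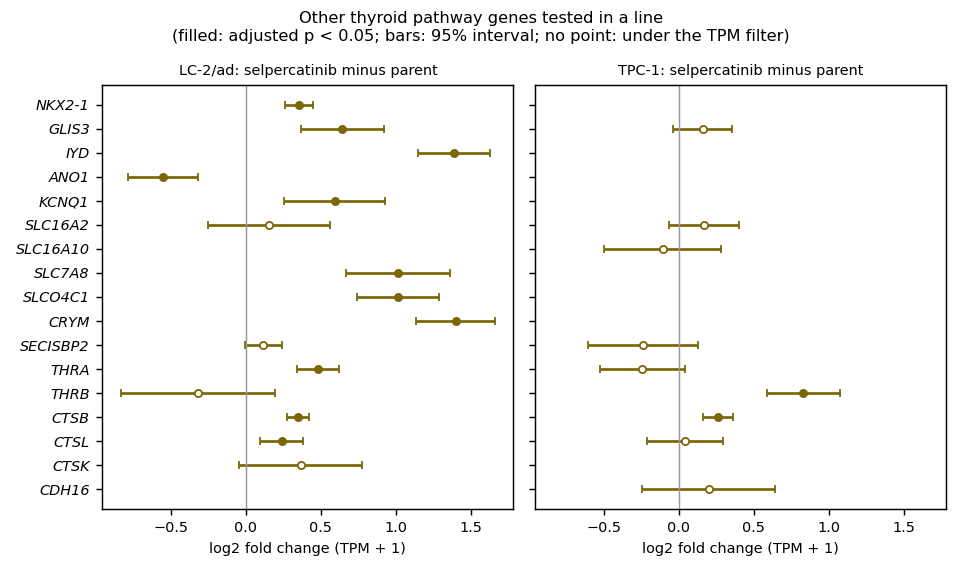
Log2 fold changes on the TPM + 1 scale (x axis), selpercatinib minus parent, of the 17 of 27 other thyroid pathway genes that could be tested in at least 1 line, by limma, with 95% intervals as bars. Filled points passed an adjusted p of 0.05 and genes with no point were under the filter in that line; 11 points are filled for LC-2/ad and 2 for TPC-1.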

How the data were processed

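RNA was sequenced from 12 libraries of LC-2/ad and TPC-1 cells. The authors deposited TPM for each gene, with a separate table for each line. Salmon, bcl2fastq 2.20.0 and GRCh38 are named, with no roles, in the submitters' processing notes; the annotation and the summing to genes are not given in the sources used here. TPM keep no count of reads, so no counting interval is given. Of 37247 genes, 34436 had a symbol and 34620 were in GENCODE 29, which gave coordinates. All deposited columns were used.

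Within each line log2(TPM + 1) was fitted with limma 3.58.1 in R 4.3.3 (eBayes, trended variance), keeping genes whose TPM averaged 1 or more. Tests were two-sided with Benjamini-Hochberg adjustment over all genes tested and a threshold of 0.05. Log2 fold changes are selpercatinib minus parent, with limma's moderated SE, and understate changes of low genes. The difference of responses, TPC-1 minus LC-2/ad, came from 1 fit of all libraries for genes at a mean of 1 TPM in each line. Members under the filter had an exact permutation test of mean log2(TPM + 1) where no library was at 0. The fits were tested on simulated data. Every member is described. Of 27 other thyroid genes, 7 partners were named whatever their values and up to 4 others per line by size among called genes. The members and lists were chosen with earlier results of these data known. Some listed genes are not reported here.

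Each fit was repeated with the pseudocount at 0.1 and at 5, with the filter dropped or raised to 5 TPM, after median-of-ratios scaling, after mitochondrial genes were removed, with an untrended variance, with replicate number as a blocking factor, and without each single library. Promoter sequences are from RefSeq (GRCh38.p14). Tables were read with Python 3.11.15, pandas 2.3.3, numpy 2.4.6, scipy 1.17.1 and data.table (version 1.17.8), and figures drawn with matplotlib 3.10.9.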

Additional observations from a re-analysis of the deposited data

Results flagged for a closer look

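The response of 4 genes to selpercatinib differed between the lines by the test of the difference itself, TPC-1 minus LC-2/ad, in log2 units. These were FOXE1 at -1.53, THRA at -0.72, GLIS3 at -0.48 and THRB at 1.15. They were 1 of 3 members and 3 of 7 other listed genes that could be compared (33.3% and 42.9%). Of all 11996 genes compared, 36.6% were called, so the count of calls is near the share over all genes. With a pseudocount of 5 GLIS3 was not called (limma adjusted p = 0.0735). DUOX1 moved in opposite directions, with every treated library below every parent library in TPC-1 (-0.94 on the log2 scale) and above every parent library in LC-2/ad (0.75). The difference in DUOX1 response between the lines was not tested, since DUOX1 averaged under 1 TPM in each line.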

How the results depend on the processing

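Of 155 fits of a single member under an alternative, 138 kept its direction and its side of the threshold. In LC-2/ad this held for all 4 tested members in each alternative that could test them, HHEX being left out at a mean TPM of 5. In TPC-1 the members called numbered 0 without the filter and 0 without the variance trend, against 1, and 0 to 1 when 1 library was left out. The genes called there numbered 272 without the filter and 356 without the variance trend, against 636, and 292 to 815 when 1 library was left out, with the cause not tested. For the difference of responses 2 members were called without the filter, FOXE1 and DIO2. DIO2, under 1 TPM in TPC-1, had no test of this difference with the filter in place. Values near 0 turned sign. FOXE1 in TPC-1 was -0.027 after median-of-ratios scaling and -0.036 to 0.075 when 1 library was left out, and the PAX8 difference between the lines was 0.079 with a pseudocount of 5, 0.029 after median-of-ratios scaling and -0.146 to 0.143 when 1 library was left out. Median-of-ratios scaling changed the share of higher calls to 44.4% against 55.6% in LC-2/ad and to 62.3% against 75.6% in TPC-1, and removal of mitochondrial genes to 47.3% against 60.6% for the difference. Deviations of same-numbered libraries correlated at -0.048 to -0.015 in LC-2/ad and -0.026 to 0.054 in TPC-1. Those of unlike-numbered libraries correlated at 0.003 to 0.04 and -0.116 to 0.087. With 3 libraries per group these values cannot show whether same-numbered libraries shared a culture or day. With the replicate block 7357, 542 and 4227 genes were called in LC-2/ad, in TPC-1 and for the difference, PAX8 in TPC-1 had an adjusted p of 0.0277, and no member's call changed. Depth is unknown, and members averaging under 1 TPM had no limma test with the filter in place.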
